A study of Mus musculus with 40 samples.

Results

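The Slc22 genes encode membrane carriers of small organic cations and anions, carnitine and urate. Described here are 9 of them that act in, or are known from, the proximal tubule, taken by gene symbol from the 55401 rows of the count table: Slc22a2, Slc22a4, Slc22a5, Slc22a6, Slc22a8, Slc22a12, Slc22a13, Slc22a18 and Slc22a19. RNA of the kidney cortex was sequenced from 40 male C57BL/6J mice, 20 of them wild type (WT) and 20 littermates heterozygous for the Ins2-Akita allele. That allele is a germline mutation of the insulin gene Ins2 that makes insulin misfold in the beta cell, so that diabetes develops without obesity and every cell of the animal carries the mutation. Treatment by oral gavage began when the mice were 6 weeks old and lasted until they were 22 weeks old. The 8 groups held 5 mice each: mice of either genotype received the ethanol vehicle (10% ethanol in water), MitoGamide at 10 mg/kg in that vehicle, water, or MitoQ. MitoGamide is a scavenger of reactive dicarbonyls that is directed to mitochondria, and MitoQ is an antioxidant directed there in the same way; the labels give no dose for MitoQ. Each library came from 1 mouse.

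In the proximal tubule, organic cations enter from the blood through the basolateral carrier OCT2 and organic anions through OAT1 and OAT3, which exchange them for dicarboxylates. Export into the urine is the work of other families, such as the MATE and ABC transporters. Carriers of the brush border take up what was filtered, carnitine by way of OCTN2 and urate by way of URAT1. Several of these genes are known targets of hepatocyte nuclear factors, and some differ between male and female mouse kidneys.

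The libraries held between 9106654 and 24321424 estimated counts, and all 9 genes had a mean of at least 10 counts, from 369 for Slc22a19 to 12991 for Slc22a12. Values below are CPM, counts scaled to a common library size with TMM factors over the 40 libraries, unless another scale is named. Libraries on water or MitoQ differed from each other more than the others did. Their position on the first principal component, which held 45.1% of the variance, ran from -28.8 to 83.3, while the libraries on ethanol or MitoGamide lay between -42.7 and -8.66. In 3 libraries more than 40% of the counts came from the mitochondrial genome, namely replicates 2 and 5 of Akita mice on water (43.1% and 40.7%) and replicate 3 of WT mice on MitoQ (49.2%). WT replicate 1 on water had a summed level of 379 CPM for the hepatocyte markers Alb, Apoa1 and Ttr, against at most 61.0 CPM in any other library. All 10 proximal tubule markers were measured, and their summed level per library ran from 8934 to 18582 CPM, so the markers of the labelled tissue were present in every library. In pieces of cortex, fewer cells of a type and less RNA per cell cannot be told apart.

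Levels of different genes were compared per kilobase of merged exons, a length that joins the exons of all annotated transcripts of a gene, expressed or not. On that scale Slc22a12 (the urate and anion exchanger URAT1) stood highest with a mean of 355 CPM per kb. Slc22a6 (OAT1) followed with 158 CPM per kb and Slc22a18, an imprinted gene for a carrier of unsettled substrate, with 138 CPM per kb. Slc22a8 (OAT3) had 80.7 CPM per kb, Slc22a5 (OCTN2, the sodium-coupled carnitine carrier) 64.9 and Slc22a2 (OCT2) 59.7. The lowest levels per kb belonged to Slc22a13 (OAT10, a carrier of nicotinate and urate) with 15.1, Slc22a4 (OCTN1, the carrier of ergothioneine) with 13.4 and Slc22a19, a rodent anion carrier of the brush border, with 4.23. In CPM some neighbours change places: Slc22a8 stood above Slc22a18 (316 against 235 CPM) and Slc22a4 above Slc22a13 (34.2 against 30.3 CPM). The genes also differed in their spread between mice of 1 group. The median coefficient of variation over the 8 groups was 12.9% for Slc22a4 and between 17.1% and 22.5% for Slc22a2, Slc22a5, Slc22a6, Slc22a8, Slc22a12 and Slc22a18. It reached 33.6% for Slc22a13 and 38.4% for Slc22a19.

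**Figure D1:**
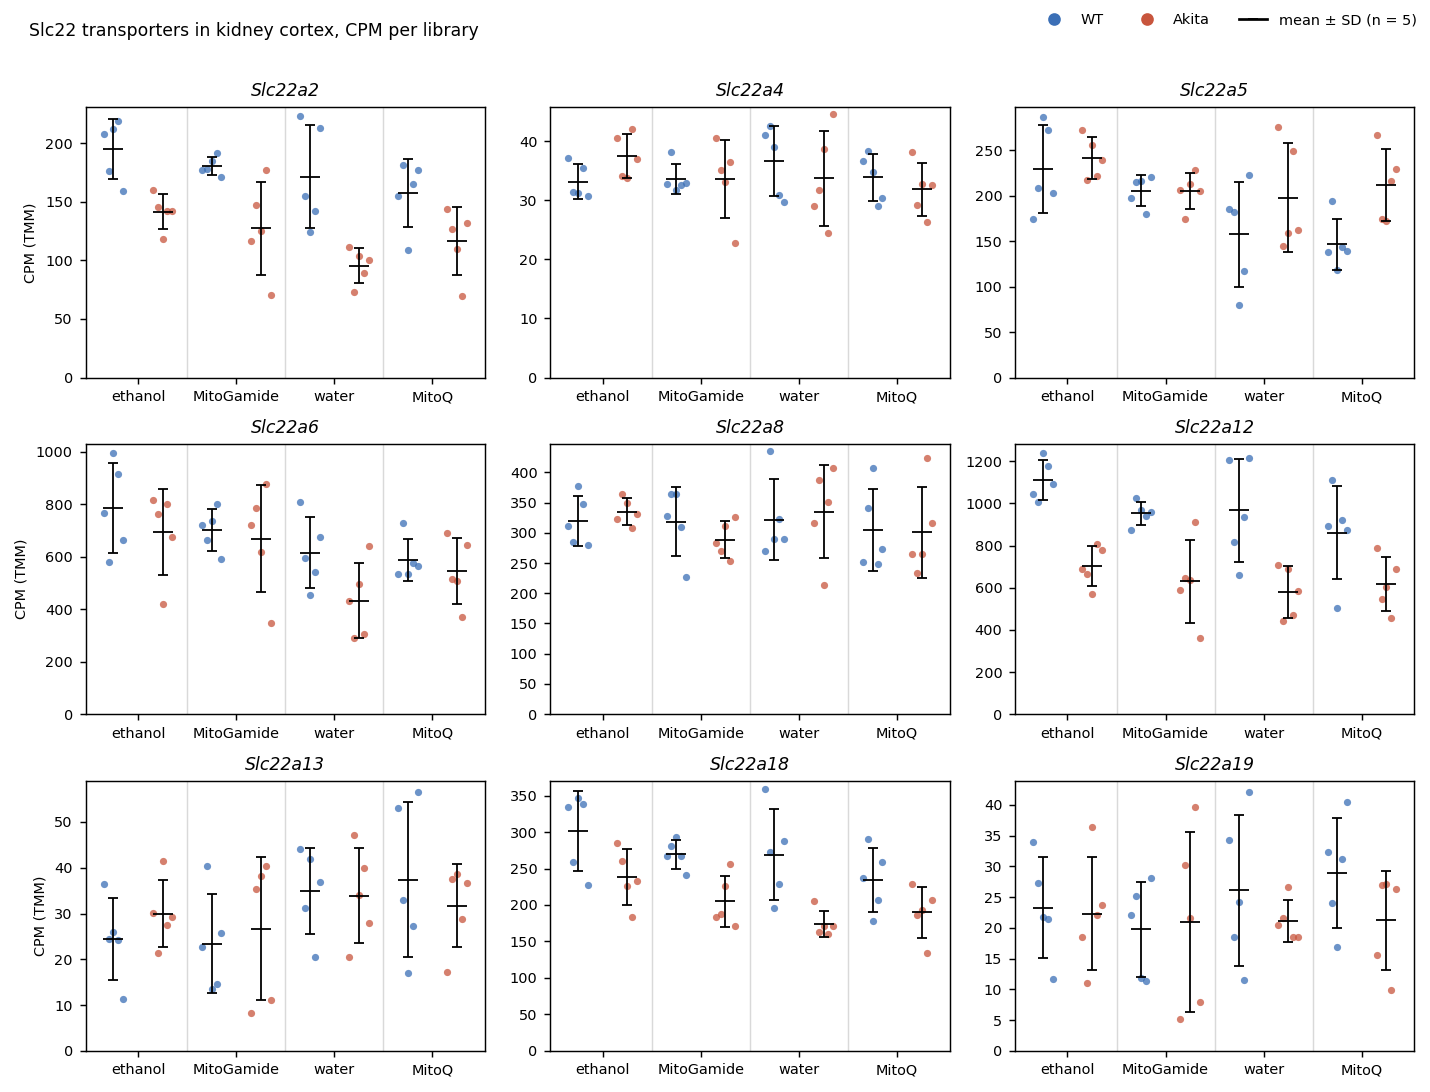
CPM of each gene in every library (points), with the mean and SD of the 5 mice of a group (black), for WT and Akita mice by treatment. Slc22a2, Slc22a6, Slc22a12 and Slc22a18 lay lower in Akita than in WT mice in all 4 treatment groups by their means. Relative to the group mean, the 5 points of a group spread most for Slc22a13 and Slc22a19.

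The estimated counts of some of these genes could be divided with relatives. Of the 31-base words in the transcripts of Slc22a13, 41.5% also occur in the pseudogene Slc22a13b-ps, and of those of Slc22a5, 35.8% also occur in Slc22a21. The shared portion was 6.94% for Slc22a4 and 6.60% for Slc22a2, and at most 1.45% for the remaining 5 genes. On GRCm38, Slc22a12 lies at chr19:6535845-6543032 on the minus strand, within the bounds of Nrxn2 on the plus strand. Slc22a13 (chr9:119192974-119209098) overlaps Slc22a14 on its own strand. Slc22a8 (chr19:8591254-8611835) and Slc22a6 (chr19:8618039-8628299) are neighbours on the plus strand, and Slc22a4 (chr11:53983123-54028090) and Slc22a5 (chr11:53864542-53891660) are neighbours on the minus strand. Slc22a2 lies at chr17:12584132-12628488, Slc22a18 at chr7:143473736-143499334 and Slc22a19 at chr19:7673061-7711310, where it overlaps the processed pseudogenes Gm15967 and Gm15968 on its own strand. All 9 are annotated as protein-coding.

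Diabetes was associated with lower transcript levels of the urate exchanger Slc22a12, the cation carrier Slc22a2 and Slc22a18. Over the 40 libraries, with treatment as a second factor, Slc22a12 fell by 35.0%, Slc22a2 by 32.2% and Slc22a18 by 25.1% in Akita mice. The other 6 genes did not pass the test in this fit. The 3 called genes are 3 of 9, against 22.8% of all 17769 genes tested, or 11.8% of them when only lower genes are counted. DESeq2 called 3 of 9, against 24.5% of all genes. The median log2 fold change of the 9 genes was -0.19 and that of all genes -0.02. The share of counts from the mitochondrial genome moved with genotype too. Its median was higher in Akita than in WT mice in 4 of 4 treatment groups, at 25.7% against 22.0% on ethanol, 30.9% against 23.6% on water, 29.98% against 26.6% under MitoGamide and 28.7% against 27.4% under MitoQ. The groups did not overlap under MitoGamide (28.0% to 35.4% against 24.6% to 27.8%) and overlapped in the other treatments. Its part in the falls was not tested.

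Slc22a12 was the member with the smallest adjusted p on ethanol and over all 40 libraries. On the ethanol vehicle its levels were 690, 664, 568, 808 and 777 CPM in Akita mice and 1044, 1007, 1239, 1180 and 1091 CPM in WT mice. The groups did not overlap, as for 13.1% of the 17469 genes compared in this way. The fall was 36.2%, or -0.65 ± 0.10 on the log2 scale (SE, adjusted p = 0.00073, edgeR's quasi-likelihood test with Benjamini-Hochberg adjustment). On water the levels were 707, 443, 691, 470 and 587 CPM in Akita mice and 1208, 818, 659, 934 and 1215.5 CPM in WT mice, of which replicate 3 fell within the Akita range. The log2 fold change there was -0.74 ± 0.23 and did not pass the test (adjusted p = 0.29), but did in the fit of all 40 libraries with 8 group means (adjusted p = 0.027). Under MitoGamide, Akita mice had 591, 648, 639, 912 and 359 CPM and WT mice 875, 1024, 970, 941 and 958 CPM. Replicate 4 of the Akita mice was as high as WT mice, replicate 5 was the lowest of all 40 libraries, and the log2 fold change of -0.56 ± 0.19 did not pass (adjusted p = 0.071). It passed in DESeq2 (adjusted p = 0.026), in the fit of all 40 libraries with 8 group means (adjusted p = 0.041) and without Akita replicate 4 (-0.74, adjusted p = 0.018) or Akita replicate 5 (-0.41, adjusted p = 0.041). Under MitoQ, Akita mice had 788, 546, 605, 456 and 688 CPM and WT mice 894, 1111, 506, 924 and 873 CPM (-0.48 ± 0.22, adjusted p = 0.56). Replicate 3 of the WT mice, the library richest in mitochondrial counts, was the only one of its group within the Akita range. Over all 40 libraries the log2 fold change was -0.62 ± 0.10 (adjusted p = 3.3e-06), and 20 of 20 Akita libraries lay below the WT median of 964 CPM.

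Slc22a2 takes up cations such as creatinine and metformin from the blood. On the ethanol vehicle its levels were 160, 145, 118, 143 and 142 CPM in Akita mice and 208, 177, 212, 219 and 159 CPM in WT mice. The groups met at their edges only, where Akita replicate 1 and WT replicate 5 had almost the same value. The log2 fold change was -0.44 ± 0.10 (adjusted p = 0.0075, edgeR's quasi-likelihood test), a fall of 26.5%. In a fit of all 40 libraries with 8 group means the value was -0.46 and the call was lost (adjusted p = 0.18). On water, Akita mice had 112, 72.7, 104, 89.6 and 100.2 CPM and WT mice 223, 155, 125, 142 and 213 CPM. These groups did not overlap, as for 2.62% of 17609 genes, yet the fold change of -0.85 ± 0.20 did not pass the test (adjusted p = 0.12). It passed in DESeq2 (adjusted p = 0.0079) and in the fit of all 40 libraries with 8 group means (adjusted p = 0.0057). Under MitoGamide the levels were 117, 148, 125, 177 and 70.1 CPM in Akita mice and 177, 178, 185, 191 and 171 CPM in WT mice (-0.46 ± 0.19, adjusted p = 0.12), which passed without Akita replicate 4 (-0.62, adjusted p = 0.042) and was -0.31 without Akita replicate 5 (adjusted p = 0.071). Without any other library of these groups the adjusted p of Slc22a2 was 0.13 to 0.20. Under MitoQ they were 144, 127, 109.6, 69.2 and 132 CPM in Akita mice and 155, 181, 109, 165 and 177 CPM in WT mice (-0.44 ± 0.21, adjusted p = 0.58). Akita replicate 4 reached into the WT range under MitoGamide, and WT replicate 3 lay within the Akita range under MitoQ. Over all 40 libraries the log2 fold change was -0.56 ± 0.09 (adjusted p = 1.3e-05), with 19 of 20 Akita libraries below the WT median of 177 CPM.

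Slc22a18 was lower by its mean in Akita mice in 4 of 4 treatment groups. It did not pass edgeR's test in any of them alone when all libraries were used without a block. On ethanol its levels were 286, 261, 226, 184 and 234 CPM in Akita mice and 335, 259, 347, 339 and 227 CPM in WT mice (-0.32 ± 0.13, adjusted p = 0.12, edgeR's quasi-likelihood test). The 2 lowest WT libraries lay among those of the Akita mice, and without the lowest, replicate 5, the value was -0.41 (adjusted p = 0.042). On water the levels were 205, 163, 172, 160 and 172 CPM in Akita mice and 360, 273, 196, 228 and 288 CPM in WT mice (-0.63 ± 0.18, adjusted p = 0.24), which passed in DESeq2 (adjusted p = 0.040) and in the fit of all 40 libraries with 8 group means (adjusted p = 0.016). Under MitoGamide they were 184, 188, 226, 256 and 172 CPM in Akita mice and 267, 281, 294, 267 and 241 CPM in WT mice (-0.36 ± 0.12, adjusted p = 0.059), which passed in DESeq2 (adjusted p = 0.025) and without Akita replicate 4 (-0.46, adjusted p = 0.017), and was -0.30 without Akita replicate 5 (adjusted p = 0.071). With the replicate number as a block, Slc22a18 passed in edgeR under MitoGamide (-0.37, adjusted p = 0.041). A single library kept the groups from separating in each of the last pairs, Akita replicate 1 over WT replicate 3 on water and Akita replicate 4 over WT replicate 5 under MitoGamide. Under MitoQ the levels were 228, 187, 193, 134 and 207 CPM in Akita mice and 237, 291, 178, 207 and 259 CPM in WT mice (-0.30 ± 0.18, adjusted p = 0.73), and the groups overlapped. Over all 40 libraries the log2 fold change was -0.42 ± 0.08 (adjusted p = 6.9e-05), and 19 of 20 Akita libraries lay below the WT median of 267 CPM.

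**Figure D2:**
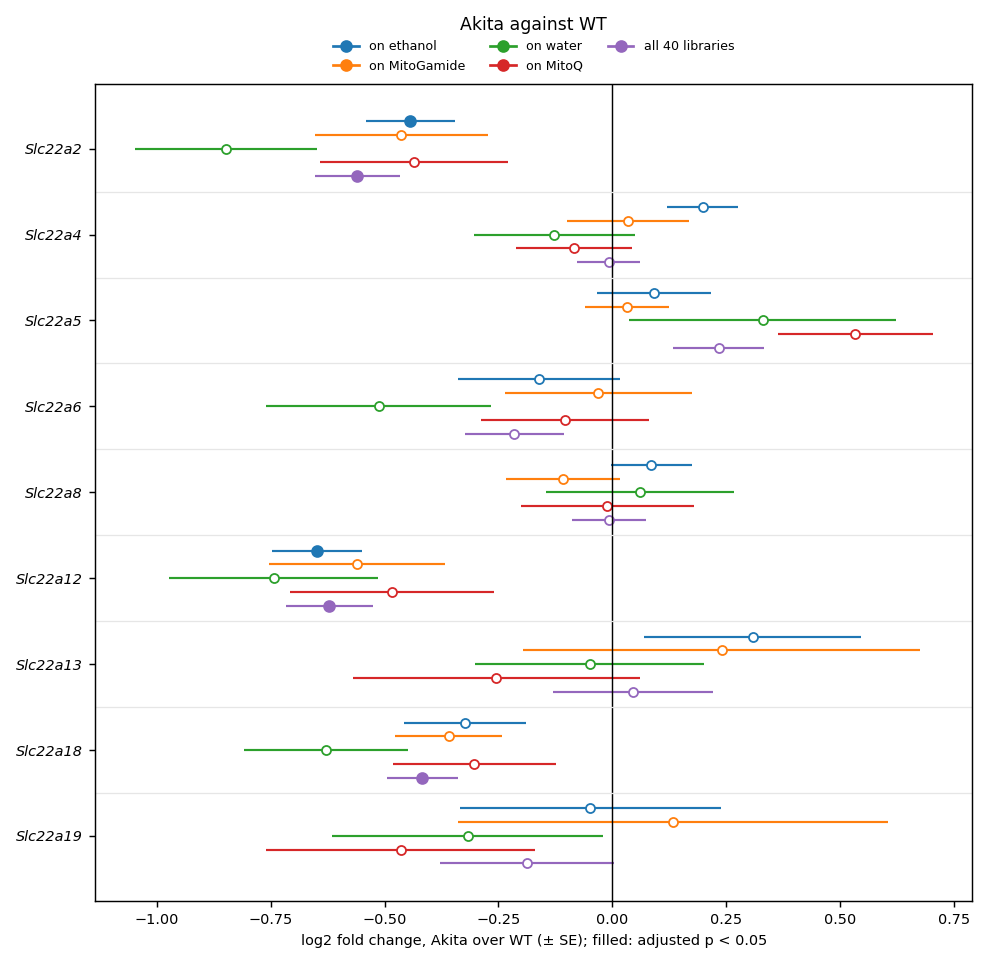
Log2 fold change of Akita over WT mice with its standard error for the 9 genes, on each treatment (10 libraries each) and over all 40 libraries; filled points had an adjusted p under 0.05. The points of Slc22a2, Slc22a12 and Slc22a18 lie left of 0 in all 5 fits, as do those of Slc22a6, which was not called in any. Those of Slc22a8 lie between -0.11 and 0.09.

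The falls over all 40 libraries did not rest on 1 arm of the study. In the ethanol and MitoGamide groups alone, the log2 fold changes were -0.60 for Slc22a12, -0.45 for Slc22a2 and -0.34 for Slc22a18, with adjusted p of 0.000314, 0.0039 and 0.0079 in edgeR. In the water and MitoQ groups alone, they were -0.61, -0.64 and -0.47, with adjusted p of 0.028, 0.014 and 0.038. Without the 3 libraries over 40% mitochondrial counts they were -0.60, -0.52 and -0.39, all past the threshold. The difference between the diabetes effect on ethanol and that on water was tested as an interaction. It passed for 0 of 9 genes and for 0 of all 18050 genes (0%, edgeR), with 0 members and 767 genes (4.25%) at an unadjusted p under 0.05, and DESeq2 called 0 members and 2 genes (0.0111%). The log2 difference for Slc22a2 was 0.40, with an interval from -0.08 to 0.89.

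Counted by treatment, diabetes changed 2 of 9 genes on the ethanol vehicle, against 16.4% of all genes tested, and both were lower, against 8.22% of all genes tested that were lower. On water it was 0 of 9, against 0.552% of all genes, with 3 members at an unadjusted p under 0.05 (7.56% of all genes) and 2 called by DESeq2 (1.94% of all genes). Under MitoGamide it was 0 of 9, against 14.3%, with 3 members at an unadjusted p under 0.05 (31.1% of all genes) and 2 called by DESeq2 (18.5%). Without Akita replicate 4 under MitoGamide 3 members and 1963 genes were called there, and without Akita replicate 5, 1 member and 2822 genes. Under MitoQ it was 0 of 9, against 0.557%, with 1 member at an unadjusted p under 0.05 (9.06% of all genes) and 0 called by DESeq2 (2.29%). The libraries on water and MitoQ were those of wider spread, and the part of that spread in these counts was not tested.

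The carnitine carrier Slc22a5 did not pass the test in Akita mice. On ethanol its levels were 272, 217, 255, 222 and 239 CPM in Akita mice and 174, 209, 287, 272 and 202 CPM in WT mice, with full overlap (0.09 ± 0.13 on the log2 scale). Under MitoQ they were 267, 175, 172, 216 and 229 CPM in Akita mice and 138, 194, 118, 143 and 139 CPM in WT mice, where only WT replicate 2 lay within the Akita range (0.53 ± 0.17, adjusted p = 0.26, edgeR's quasi-likelihood test). Over all 40 libraries the log2 fold change was 0.23 ± 0.10 (adjusted p = 0.088). That value came under the threshold without the 3 libraries richest in mitochondrial counts (0.27, adjusted p = 0.039) and when any of 5 single libraries was left out. These were Akita replicate 2 on water, Akita replicate 2 on MitoGamide, WT replicates 3 and 4 on ethanol and WT replicate 5 on water, with log2 fold changes from 0.27 to 0.28. In the ethanol and MitoGamide groups alone, the value was 0.07 (adjusted p = 0.55), and in the water and MitoQ groups alone 0.43 ± 0.17 (adjusted p = 0.21). Since Slc22a5 shares sequence with Slc22a21, part of its reads may have been counted for the latter, which had mean levels of 3.36 and 1.93 CPM in Akita and WT mice on ethanol.

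The ergothioneine carrier Slc22a4, next to Slc22a5 in the genome, ran from 22.8 to 44.6 CPM in Akita mice and from 29.0 to 42.5 CPM in WT mice. Its log2 fold change over all 40 libraries was -0.01, with an interval from -0.15 to 0.13. On ethanol alone it was 0.20 ± 0.08, which did not pass (adjusted p = 0.10, edgeR).

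The basolateral anion carriers showed no called change with diabetes. Slc22a6 on ethanol had 816, 762, 421, 800 and 674 CPM in Akita mice and 769, 582, 995, 917 and 665 CPM in WT mice, with wide overlap. On water it had 431, 291, 496, 307 and 641 CPM in Akita mice and 809, 597, 456, 542 and 674 CPM in WT mice. Its mean was lower in Akita mice in 4 of 4 treatment groups, but the log2 fold change over all 40 libraries was -0.21 ± 0.11 (adjusted p = 0.16, edgeR's quasi-likelihood test). Slc22a8 ran from 214 to 424 CPM in Akita mice and from 226 to 436 CPM in WT mice, with medians of 316 and 311 CPM. Its log2 fold change was -0.01, and the interval from -0.17 to 0.16 leaves out a fall as large as that of Slc22a12. Relative to their means, Slc22a13 and Slc22a19 varied most between mice of 1 group. Slc22a13 had 8.29, 35.4, 38.1, 40.3 and 11.1 CPM in Akita mice on MitoGamide, and Slc22a19 had 5.19, 30.3, 21.7, 39.7 and 7.86 CPM in the same libraries. Both genes were low in replicates 1 and 5 of that group and higher in each of the others. Their log2 fold changes over all 40 libraries were 0.05 and -0.19, with intervals from -0.31 to 0.40 and from -0.57 to 0.20.

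By their group means, Slc22a2 and Slc22a12 kept all 4 WT groups above all 4 Akita groups. For Slc22a2 the order ran from WT on ethanol (195 ± 25.9 CPM, SD, n = 5) over WT on MitoGamide (180.4 ± 7.85), water (172 ± 43.8) and MitoQ (157 ± 29.1) to Akita on ethanol (142 ± 14.9), MitoGamide (127 ± 39.7), MitoQ (116 ± 29.1) and water (95.6 ± 15.04). For Slc22a12 it ran from WT on ethanol (1112 ± 95.9 CPM) over WT on water (967 ± 244), MitoGamide (954 ± 53.7) and MitoQ (861 ± 220.2) to Akita on ethanol (701 ± 95.2), MitoGamide (629.8 ± 197), MitoQ (617 ± 128) and water (579.5 ± 122). Slc22a18 had the same ends, WT on ethanol (301 ± 54.5 CPM) and Akita on water (174 ± 17.9), but Akita on ethanol stood above WT on MitoQ (238 ± 38.4 against 234 ± 44.0). For each of the 9 genes, every 2 neighbours in the order of the 8 group means differed by less than the larger of their 2 SDs. The ratio of the highest to the lowest group mean was 2.04 for Slc22a2, 1.92 for Slc22a12, 1.81 for Slc22a6 and 1.73 for Slc22a18. It was 1.65 for Slc22a5, 1.60 for Slc22a13, 1.47 for Slc22a19, 1.18 for Slc22a4 and 1.16 for Slc22a8.

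Since Slc22a2, Slc22a12 and Slc22a18 moved together and hepatocyte nuclear factors are known regulators of the anion carriers, the 250 bases before the start of each gene were read from RefSeq (GRCm38.p6), which held all 9. The RefSeq start can differ from that of the GENCODE model given above: those of Slc22a2, Slc22a8 and Slc22a18 lie inside the models. The HNF4 core CAAAGTCCA on either strand occurred in none of the 9, and in 0.384% of 32851 promoters of this length. That holds for this core only, as another motif was searched and its result is not reported here. Shown are the promoters of the 3 genes that passed the test, 5′ to 3′ on the strand of the gene, in lower case throughout as none holds the core.
Slc22a12, chr19:6543071-6543320, minus strand: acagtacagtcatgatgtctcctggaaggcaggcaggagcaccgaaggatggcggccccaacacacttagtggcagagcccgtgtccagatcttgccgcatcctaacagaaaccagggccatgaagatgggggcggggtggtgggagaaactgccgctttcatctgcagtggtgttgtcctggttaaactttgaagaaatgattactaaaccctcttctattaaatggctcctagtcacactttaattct
Slc22a2, chr17:12583939-12584188, plus strand: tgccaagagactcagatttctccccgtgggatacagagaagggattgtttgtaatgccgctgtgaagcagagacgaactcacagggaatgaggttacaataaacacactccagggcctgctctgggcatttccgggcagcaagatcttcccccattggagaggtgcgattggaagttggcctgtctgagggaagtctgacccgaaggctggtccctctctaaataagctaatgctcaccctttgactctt
Slc22a18, chr7:143473539-143473788, plus strand: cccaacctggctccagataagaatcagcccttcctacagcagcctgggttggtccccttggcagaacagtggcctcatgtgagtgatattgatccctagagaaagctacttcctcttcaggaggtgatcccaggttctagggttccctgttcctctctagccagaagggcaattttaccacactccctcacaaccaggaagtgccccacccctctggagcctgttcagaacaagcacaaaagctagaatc
The absence of a match says only that these letters are not in this window.

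Of 5 genes listed, hepatocyte nuclear factors and Ppara, edgeR called 2 higher and 2 lower on the ethanol vehicle, against 16.4% of all genes. Under MitoGamide it called 0 of 5 (14.3% of all genes) and DESeq2 2 (18.5%), with 3 at an unadjusted p under 0.05 (31.1%). Under MitoQ edgeR called 0 of 5 (0.557%), as on water (0.552%). Over all 40 libraries 1 rose and 1 fell (22.8%). Of the factors reported here, Hnf4a fell on the ethanol vehicle by 0.28 ± 0.07 (log2, adjusted p = 0.014, edgeR's quasi-likelihood test) and Hnf4g by 0.39 ± 0.09 (adjusted p = 0.013). Ppara, which drives fatty acid oxidation, rose by 0.49 ± 0.11 (adjusted p = 0.0074). In the fit of all 40 libraries the log2 fold change was 0.30 for Ppara and -0.41 for Hnf4g, both past the threshold, and -0.19 for Hnf4a, which did not pass (adjusted p = 0.090). On water none of these 3 passed, with log2 fold changes of -0.24 for Hnf4a, -0.16 for Hnf4g and 0.13 for Ppara (adjusted p = 1.00 each, edgeR).

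MitoGamide was given to ask whether trapping dicarbonyls changes the diabetic kidney. In Akita mice it changed 0 of 9 genes against the ethanol vehicle (edgeR's quasi-likelihood test), where 1.26% of 17051 genes were called, with 2 members at an unadjusted p under 0.05 (20.9% of all genes) and 0 called by DESeq2 (6.82%). With all libraries in, all 9 log2 fold changes were below 0, from -0.22 for Slc22a5 to -0.04 for Slc22a6. With 1 library left out, the values reached 0.02 for Slc22a2, 0.13 for Slc22a6, 0.01 for Slc22a12, 0.09 for Slc22a13 and 0.19 for Slc22a19. Those of Slc22a4, Slc22a5, Slc22a8 and Slc22a18 stayed below 0. Slc22a5 had 206, 174, 213, 228 and 205 CPM on MitoGamide (-0.22 ± 0.09, adjusted p = 0.20), and Slc22a8 had 283, 270, 312, 253 and 327 CPM there against 324, 365, 350, 307 and 331 CPM on ethanol (-0.21 ± 0.08, adjusted p = 0.19). Both genes overlapped between the groups. The mitochondrial share was 28.0% to 35.4% on MitoGamide and 21.6% to 28.7% on ethanol in these mice. The summed level of the 3 endothelial markers was 198 to 291 CPM against 147 to 188 CPM, without overlap, with a median log2 fold change of 0.59, 3 of 3 at an unadjusted p under 0.05 (20.9% of all genes), 0 called by edgeR and 2 by DESeq2 (6.82%). The part of either in the differences of the 9 genes was not tested. For Slc22a12 the difference was -0.14, with an interval from -0.58 to 0.30, which holds 0 and a further fall and leaves out a rise as large as the difference from WT mice on ethanol. The Akita ethanol libraries entered both this comparison and that of diabetes, which therefore share their error.

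In WT mice MitoGamide changed 0 of 9 genes and 0% of 17395 genes (edgeR), with 1 member and 1841 genes (10.6%) at an unadjusted p under 0.05, and DESeq2 called 0 members and 74 genes (0.654%). The single member was Slc22a12, with 875, 1024, 970, 941 and 958 CPM on MitoGamide against 1044, 1007, 1239, 1180 and 1091 CPM on ethanol. Its log2 fold change of -0.23 ± 0.08 did not pass the adjusted test (adjusted p = 0.35). The effect of MitoGamide in Akita minus that in WT mice passed for 0 of 9 genes and 0% of 17256 genes, with 0 members and 1435 genes (8.32%) at an unadjusted p under 0.05, and DESeq2 called 0 of either. The differences ran from -0.20 for Slc22a8 to 0.17 for Slc22a19. With 1 library left out, that of Slc22a8 ran from -0.30 to -0.13 and that of Slc22a19 from -0.18 to 0.43.

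MitoQ changed 0 of 9 genes against water in Akita mice (0% of 18496 genes, edgeR), with 0 members and 363 genes (1.96%) at an unadjusted p under 0.05, and DESeq2 called 0 of either. The largest log2 fold changes were 0.34 ± 0.24 for Slc22a6 and 0.29 ± 0.19 for Slc22a2, and the groups overlapped. In WT mice it also changed 0 of 9 genes (0% of 17881 genes), with 0 members and 575 genes (3.22%) at an unadjusted p under 0.05, and DESeq2 called 0 members and 2 genes (0.0112%). The log2 fold changes there ran from -0.20 for Slc22a18 to 0.15 for Slc22a19. With 1 library left out, that of Slc22a18 ran from -0.29 to -0.07 and that of Slc22a19 from -0.04 to 0.40. For the MitoQ effect in Akita minus that in WT mice the count was 0 of 9 genes (0% of 18225 genes), with 0 members and 207 genes (1.14%) at an unadjusted p under 0.05, and 0 of either by DESeq2. The 2 compounds were given in different vehicles, so that their effects stand side by side and were not compared.

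The vehicles themselves were compared within each genotype. In Akita mice 2 of 9 genes were higher on ethanol than on water, against 12.7% of 17928 genes called and 3.66% called higher. Slc22a2 had a log2 fold change of 0.58 ± 0.14 (adjusted p = 0.032, edgeR's quasi-likelihood test), and its ethanol values of 118 to 160 CPM did not overlap its water values of 72.7 to 112 CPM, as for 10.4% of 17584 genes. Slc22a18 had 0.47 ± 0.14 (adjusted p = 0.045), with overlap of Akita replicate 4 on ethanol and Akita replicate 1 on water. Slc22a6 was higher by 0.69 ± 0.25, which did not pass (adjusted p = 0.069) but did in DESeq2 (adjusted p = 0.027, where 3 of 9 members and 23.8% of all genes were called) and in a fit of all 40 libraries (adjusted p = 0.040). Without the 2 water libraries over 40% mitochondrial counts 0 members and 1 gene in all were called, and the values for Slc22a2 and Slc22a18 were 0.49 (adjusted p = 0.12) and 0.43 (adjusted p = 0.17). Both calls were also lost when any one of 7 libraries was left out, where 1 to 132 genes in all were called, namely replicates 1, 2, 3 or 5 on ethanol and replicates 2, 3 or 5 on water. In WT mice 0 of 9 genes and 0% of 18092 genes were called, with 0 members and 4959 genes (27.4%) at an unadjusted p under 0.05, and DESeq2 called 0 members and 725 genes (4.01%). The largest differences there were 0.55 ± 0.26 for Slc22a5 and -0.51 ± 0.27 for Slc22a13. Vehicle and the spread of the water libraries, shown by their mitochondrial share of 14.3% to 43.1% against 20.1% to 28.7% on ethanol, cannot be told apart. Marker levels differed between the vehicles in Akita mice as well. The summed level of the 10 proximal tubule markers was 11632 to 16131 CPM on ethanol, with a median of 14345, and 9273 to 14698 CPM on water, with a median of 10023. That of the 3 markers of the distal convoluted tubule was 821 to 965 CPM on ethanol and 1032 to 1840 CPM on water, without overlap. Most of that sum was Slc12a3, with a median of 804 CPM on ethanol and 1482 CPM on water. Trpm6 was also higher on water, with medians of 47.5 CPM on ethanol and 62.1 CPM on water. Pvalb went the other way, with medians of 12.1 CPM on ethanol and 6.87 CPM on water. The part of these shifts in the differences of Slc22a2 and Slc22a18 was not tested.

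**Figure D3:**
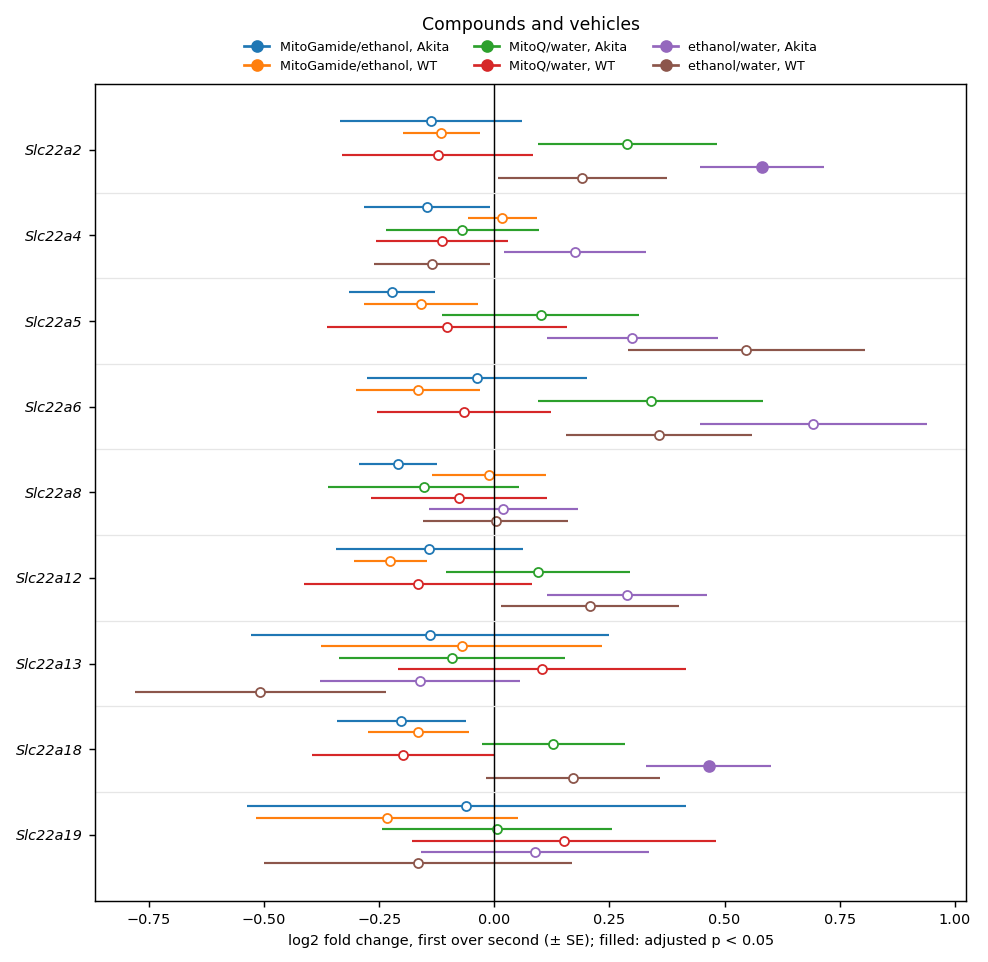
Log2 fold change with its standard error for the 9 genes in the 4 compound and 2 vehicle comparisons; filled points had an adjusted p under 0.05. Filled points appear only for Slc22a2 and Slc22a18 in ethanol against water in Akita mice.

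Within groups, mice that were high for one of these genes tended to be high for certain others. The deviations of log2(CPM + 1) from the group mean gave a Pearson r of 0.88 between Slc22a2 and Slc22a12 over 40 libraries, 0.82 between Slc22a2 and Slc22a6 and 0.79 between Slc22a2 and Slc22a18. Slc22a13 and Slc22a19 had an r of 0.84 with each other, while Slc22a13 had at most 0.32 with any other member. Slc22a8 ran the other way, with -0.44 against Slc22a19, -0.43 against Slc22a12 and -0.42 against Slc22a2, although it lies beside Slc22a6, with which its r was -0.14. Spearman's rho for these pairs was 0.80, 0.82, 0.78, 0.83, -0.47, -0.32, -0.32 and -0.06, in the order given. Without the 2 libraries farthest from the median of the first gene, r was 0.86 for Slc22a2 and Slc22a12, 0.75 for Slc22a2 and Slc22a6, 0.78 for Slc22a2 and Slc22a18 and 0.79 for Slc22a13 and Slc22a19. The negative values of Slc22a8 became weaker, at -0.39 with Slc22a19, -0.36 with Slc22a12 and -0.30 with Slc22a2. These libraries share depth and composition, and the values are given as a description. The mitochondrial share moved with several of them, with an r of -0.71 for Slc22a12, -0.59 for Slc22a2, -0.48 for Slc22a18 and 0.45 for Slc22a8. The part of that share in the pattern was not tested. Slc7a13, a marker of the last segment of the proximal tubule, also moved with several members. Its r was 0.80 for Slc22a2, 0.65 for Slc22a12, 0.59 for Slc22a18 and -0.54 for Slc22a8.

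**Figure D4:**
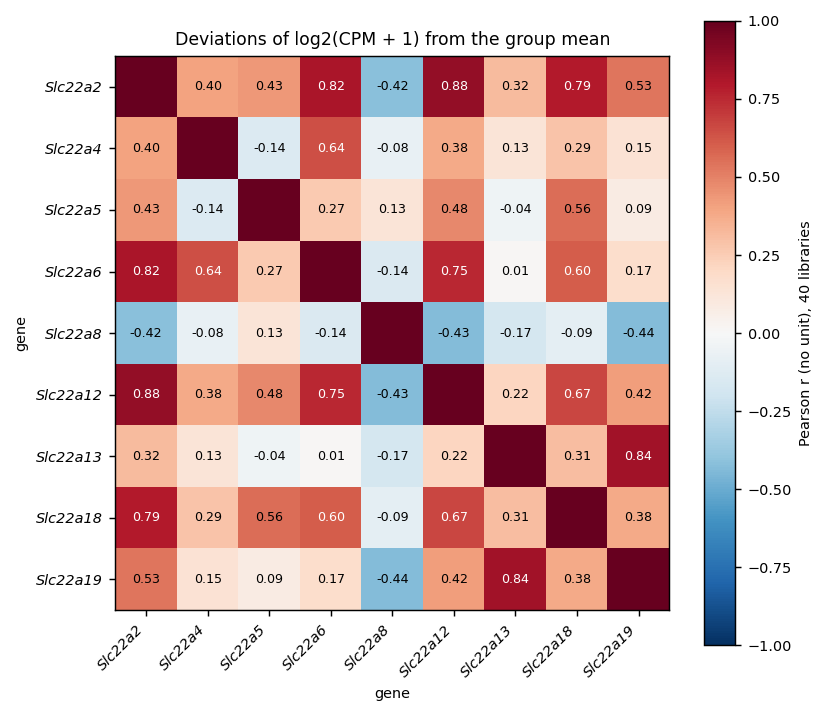
Pearson r between the 9 genes over the 40 libraries, from deviations of log2(CPM + 1) from the mean of the library's group; red is positive and blue negative. Slc22a2, Slc22a6, Slc22a12 and Slc22a18 form a block of values from 0.60 to 0.88, Slc22a13 and Slc22a19 a pair at 0.84, and Slc22a8 has negative values with 7 of the other 8 genes.

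Slc7a13 itself differed with diabetes, at 203, 131, 127, 86.2 and 151 CPM in Akita mice on ethanol and 525, 469, 382, 405 and 331 CPM in WT mice (-1.58 ± 0.19, adjusted p = 0.00014, edgeR). Of the 10 proximal tubule markers, Slc7a13 and Lrp2 fell on ethanol, against 16.4% of all genes called and 8.22% called lower, and 8 were not called, with a median log2 fold change of -0.07. In the fit of all 40 libraries 4 of the 10 fell and 0 rose, against 22.8% of all genes called and 11.8% called lower, with 6 at an unadjusted p under 0.05 (33.4% of all genes). Their summed level was 11632 to 16131 CPM in Akita mice and 14609 to 18582 CPM in WT mice on ethanol. The abundant Lrp2 (mean 4875 against 6836 CPM) and Slc34a1 (3359 against 4025 CPM) carried most of that difference. By their means, Cubn (1430 against 1258 CPM), Slc4a4 (1866 against 1652), Aqp1 (498 against 415) and Slc5a12 (407 against 378) were higher in Akita mice, and the others lower. The part of these marker differences in the falls of Slc22a2, Slc22a12 and Slc22a18 was not tested. Of the marker lists of other cells, edgeR called 2 of 3 podocyte genes, 1 of 5 of the collecting duct and 1 of 3 of the distal convoluted tubule higher on ethanol, against 16.4% of all genes called. It called 1 gene each lower of endothelium, leukocytes and hepatocytes, and 0 of 3 of the thick ascending limb, where 1 had an unadjusted p under 0.05 (30.1% of all genes) and DESeq2 called 1 (17.6%). In the fit of all 40 libraries, where 22.8% of all genes were called, 3 of 5 collecting duct, 2 of 3 podocyte and 1 of 3 distal convoluted tubule genes rose. In that fit 2 of 3 leukocyte genes, 1 of 3 hepatocyte genes and 1 of 3 of the thick ascending limb fell, and of 3 endothelial genes 1 rose and 1 fell.

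The genes whose within-group deviations were most like those of a member were sought among the 12155 genes whose mean over the 40 libraries was 50 counts or more. Slc22a2 was closest to Ggt1, the brush border enzyme that splits glutathione (r = 0.95), and Slc22a12 to Pth1r, the receptor of parathyroid hormone (r = 0.93). Slc22a13 was closest to Mettl7a2 (r = 0.94) and Slc22a19 to Mep1b, a meprin subunit of the brush border (r = 0.92), followed by another member of the gene family, Slc22a26 (r = 0.90). For Slc22a5 the closest gene was the cathepsin Ctsf (r = 0.90), for Slc22a18 the histone gene H2bc4 (r = 0.87) and for Slc22a6 the acyltransferase gene Mogat1 (r = 0.87). Slc22a4 and Slc22a8 had the weakest nearest genes, Pacc1 (r = 0.78) and the brush border myosin Myo7b (r = 0.77). The values without the 2 farthest libraries ran from 0.68 for Pacc1 to 0.94 for Ggt1.

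Some other genes of the family had larger fold changes than any of the 9. Of 16 further members listed, 12 were tested, and on the ethanol vehicle 3 rose and 4 fell, against 16.4% of all genes called, with a median log2 fold change of -0.08. Slc22a7 (OAT2, an anion carrier of liver and proximal tubule) fell from 53.3 to 8.01 CPM by group means (-2.72 ± 0.34, adjusted p = 0.00017, edgeR's quasi-likelihood test). It also fell on water, from 60.4 to 9.30 CPM (-2.70 ± 0.42, adjusted p = 0.015). There WT replicate 1, the library richest in hepatocyte markers, was the highest of its group with 85.9 CPM, against 34.4 to 80.2 CPM in the others, and without it the fall was -2.53 ± 0.43 (adjusted p = 0.047). The rodent anion carriers Slc22a30 (-1.25 ± 0.12), Slc22a28 (-1.17 ± 0.15) and Slc22a22 (-0.77 ± 0.13) fell on ethanol. Slc22a3 (OCT3), named after its values were seen, rose by 1.52 ± 0.29 (adjusted p = 0.0032), at a level of 1.09 against 0.388 CPM by group means. On water 0 rose and 1 fell in edgeR, against 0.552% of all genes called, with 7 at an unadjusted p under 0.05 (7.56% of all genes) and 2 called by DESeq2 (1.94%). In the fit of all 40 libraries 3 rose and 6 fell, against 22.8% of all genes called.

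Of the partners in transport, 17 of 18 were tested, and 5 rose and 6 fell on ethanol, against 16.4% of all genes called, with a median of 0.13. Slco1a1, an organic anion carrier of the brush border, fell from 343 to 38.1 CPM by group means (-3.15 ± 0.17, adjusted p = 2.4e-07). Slc17a3, which exports urate and anions into the urine, fell by 1.07 ± 0.09 (adjusted p = 9.5e-06). The urate carrier Slc2a9 rose by 0.97 ± 0.12 (adjusted p = 0.00014) and the exporter Abcc4, which moves urate and anions out of the cell, by 1.08 ± 0.13 (adjusted p = 0.00013). On water edgeR called Abcc4 alone (1.35 ± 0.23, adjusted p = 0.023), against 0.552% of all genes called, with 6 partners at an unadjusted p under 0.05 (7.56% of all genes) and 4 called by DESeq2 (1.94%). In the fit of all 40 libraries 4 rose and 5 fell, against 22.8% of all genes called.

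**Figure D5:**
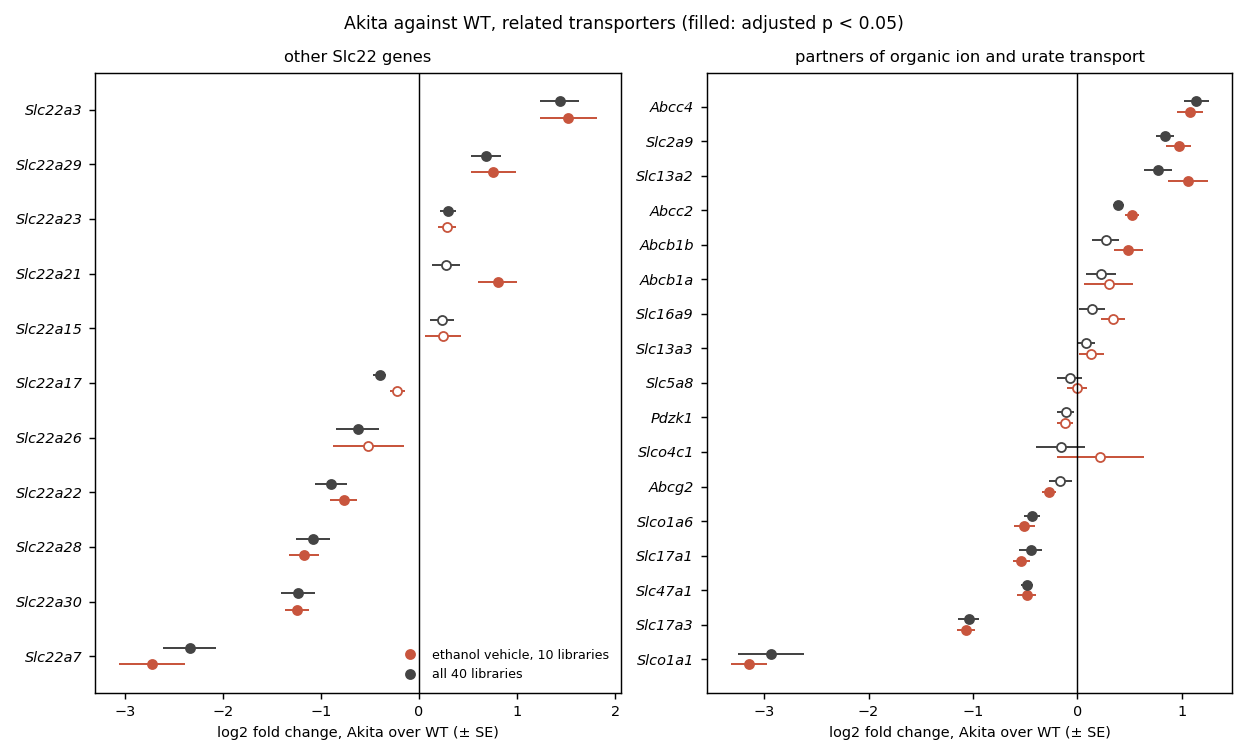
Log2 fold change of Akita over WT mice with its standard error for 11 other Slc22 genes (left) and for partners in organic ion and urate transport (right), on ethanol and over all 40 libraries; filled points had an adjusted p under 0.05. Slc22a7 and Slco1a1 lie furthest to the left at -2.72 and -3.15 on ethanol, and Slc22a3 and Abcc4 furthest to the right over all 40 libraries.

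Genes of carnitine synthesis and use were set beside Slc22a5. On ethanol edgeR called 0 of 6 tested genes, against 16.4% of all genes, although 4 had an unadjusted p under 0.05 (30.1% of all genes), and DESeq2 called 0 (17.6%). Their median log2 fold change was 0.22, and on water, where 0 of 6 were called by either tool, against 0.552% of all genes in edgeR, and 0 had an unadjusted p under 0.05, it was 0.17. Under MitoGamide 4 of 6 rose in Akita against WT mice and 0 fell, against 14.3% of all genes called. Over all 40 libraries, where 22.8% of all genes were called, 3 rose and 0 fell, named after their values were seen: Bbox1, the last enzyme of carnitine synthesis (0.94 ± 0.24), Slc25a20, the carnitine and acylcarnitine carrier of mitochondria (0.44 ± 0.10), and Crat, carnitine acetyltransferase (0.24 ± 0.07).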

How the data were processed

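Kidney cortex RNA of 40 mice was depleted of ribosomal RNA and made into directional libraries. Per the study's methods, the authors trimmed reads with Skewer, quantified them with kallisto 0.46.1 against GENCODE mouse transcripts (GRCm38) and summed transcripts per gene in R 4.0.2. The deposited values are estimated counts per gene, as whole numbers and not normalized. Every column of the table was mapped to its sample by title, and groups were taken from the labels.

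The 9 genes, the gene lists and the tests were chosen with earlier results of these data known. Each comparison was fitted in edgeR 4.0.16 (quasi-likelihood F test, TMM scaling, R 4.3.3) on its own groups, over all genes averaging 10 counts or more in them, with Benjamini-Hochberg adjustment over all genes tested and a threshold of 0.05. Interactions were fitted on 4 groups, and genotype over all 40 libraries was fitted with treatment as a factor. Fold changes are on the log2 scale, with standard errors from the F statistic. Genes named from the lists were up to 4 called genes with the smallest p on ethanol and on water. Levels are CPM with TMM factors over 40 libraries, and lengths are merged exons of GENCODE M21. The fits were also run on simulated counts, and the outcome is not given here. Alternatives were DESeq2 1.42.0, RLE scaling, no filter, a replicate block, a fit over all 40 libraries and leaving out each library. Leaving out libraries over 40% mitochondrial counts and fits within arms, and leaving out 1 water library for Slc22a7, were added after seeing the data. Library totals were 9106654 to 24321424 counts, and the errors given hold the counting error together with the spread between mice. Some results for related genes, and 1 promoter motif searched, are not reported here.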

Additional observations from a re-analysis of the deposited data

Results flagged for a closer look

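In each group of 5 mice, the highest and the lowest value of each gene were compared with their neighbours by Dixon's ratio, with a critical value of 0.71 at the 95% level. Of the 72 sets tested 3 had an outlying library, and chance gives about 1 in 20. Slc22a4 was at 38.1 CPM in replicate 2 of WT mice on MitoGamide, against 31.7 to 33.0 CPM in the others. Slc22a6 was at 729 CPM in replicate 2 of WT mice on MitoQ, against 533 to 577 CPM in the others. Slc22a18 was at 205 CPM in replicate 1 of Akita mice on water, against 160 to 172 CPM in the others.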

How the results depend on the processing

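Of the 9 genes' values recomputed under an alternative, 2478 kept their side of the threshold, 22 passed it newly and 20 lost it. The direction was compared only where a value was past the threshold in either fit, and 0 of those reversed, while some values that passed in neither fit changed sign. Members called by diabetes on ethanol numbered 1 in the fit over all 40 libraries against 2, and 2 to 3 with 1 library left out. On water they numbered 2 in DESeq2 and 3 in the fit over all 40 libraries against 0, and 0 with any library left out. Under MitoGamide they numbered 2 in DESeq2 and 1 in the fit over all 40 libraries against 0, and 0 to 3 with 1 library left out. For ethanol against water in Akita mice they numbered 3 in DESeq2, 3 in the fit over all 40 libraries, 1 with no filter on low counts and 0 without the libraries over 40% mitochondrial counts, against 2, and 0 to 2 with 1 library left out. Over all 40 libraries they numbered 3 to 4 with 1 library left out and 4 without the libraries over 40% mitochondrial counts. The cause was not tested.

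Samples with the same replicate number did not deviate together: r ran from -0.53 to 0.74 over 50 pairs, 14 of them over 0.1, and in 0 of 10 comparisons was every pair over 0.1. With the replicate number as a block, 1 member, Slc22a18, was called by diabetes under MitoGamide (adjusted p = 0.041) and 0 by ethanol against water in Akita mice. Over all genes the block fit called 32 for diabetes on water against 101, 48 on MitoQ against 101, 0 for MitoGamide in Akita mice against 214 and 0 for ethanol against water in Akita mice against 2283. It gave 1 for MitoQ in WT mice and 2 for ethanol against water in WT mice, against 0.

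Counts over all genes in the fit over all 40 libraries were 844 for diabetes on ethanol, 547 on water, 308 on MitoQ, 32 for MitoGamide in Akita mice, 18 for MitoQ in WT mice and 1567 for ethanol against water in WT mice. DESeq2 called 354 genes for diabetes on water, 415 on MitoQ, 1069 for MitoGamide in Akita mice and 4264 for ethanol against water in Akita mice, where no filter gave 1352. Without the libraries over 40% mitochondrial counts there were 12 for diabetes on water, 270 on MitoQ, 2 for MitoQ in Akita mice and 1 for ethanol against water in Akita mice. The water and MitoQ groups alone gave 785 for diabetes, against 4045. With 1 library left out, counts ran from 2170 to 2787 for diabetes on ethanol (2910 with all), 32 to 94 on water, 1248 to 2822 under MitoGamide (2386 with all, 1248 without WT replicate 2), 35 to 270 under MitoQ (270 without WT replicate 3) and 3781 to 4381 over all 40 libraries. They ran from 0 to 802 for MitoGamide in Akita mice (802 without MitoGamide replicate 5) and 0 to 4 in WT mice, 1 to 6496 for ethanol against water in Akita mice (6496 without water replicate 1) and 0 to 5216 in WT mice (5216 without water replicate 5), and 0 to 1 for the interaction of diabetes and vehicle.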
